A study of Homo sapiens with 6 samples.

Results

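The 39 genes described here encode nuclear subunits of the mitochondrial respiratory complexes II, III, IV and V: 4 of complex II, 9 of complex III, 11 of complex IV and 15 of complex V. They were taken by name from the 57316 gene names of the count files, and all 39 were among the 16531 genes that passed the filter on low counts. The cells were THP-1, a human monocytic leukaemia line. All 6 libraries came from cells first given PMA (phorbol myristate acetate, a phorbol ester that turns these cells into macrophage-like cells) at 100 ng/ml for 48 h. One group of 3 libraries then received a control solution, and the other group of 3 received recombinant human CXCL10, a chemokine, at 100 ng/mL, both for 24 h. Replicates are numbered 1, 3 and 4 in both groups. The labels do not say that replicates were separate cultures, and the spread between libraries that p-values rest on may be technical. All cells are 1 line, and polyadenylated RNA was sequenced.

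The respiratory chain passes electrons from NADH and succinate to oxygen and pumps protons across the inner mitochondrial membrane. Complex II (succinate dehydrogenase) takes electrons from succinate, complex III passes them from ubiquinol to cytochrome c, and complex IV hands them to oxygen. Complex V, the ATP synthase, lets the protons flow back through a rotor and makes ATP. Complex II is encoded wholly in the nucleus, while complexes III, IV and V also hold subunits encoded in mitochondrial DNA. In macrophages, succinate oxidation and the use of the chain are known to shift with activation.

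Promoters of such genes often hold sites for the factors NRF1, GABP (of the ETS family) and YY1. Of the 31 genes described here with a promoter entry, 16 held none of the motifs given below. Stretches of 5 promoters are shown as examples and do not stand for all of these genes. Each runs from 140 bases before to 10 bases after an annotated start, 5′ to 3′ along the gene, from RefSeq on GRCh38.p14. Capitals mark every match, on either strand, to 1 of the 3 motifs: NRF1 GCATGCGC, ETS family CCGGAAGT, YY1 AAGATGGCG. ATP5PO, ATP5PD and ATP5PF encode parts of the peripheral stalk of complex V, COX5B a subunit of complex IV, and SDHD a membrane anchor of complex II. ATP5PO lies at chr21:33915795-33915944 on the minus strand, ATP5PD at chr17:75046960-75047109 on the minus strand, ATP5PF at chr21:25735045-25735194 on the minus strand, COX5B at chr2:97645922-97646071 on the plus strand and SDHD at chr11:112086733-112086882 on the plus strand.
ATP5PO: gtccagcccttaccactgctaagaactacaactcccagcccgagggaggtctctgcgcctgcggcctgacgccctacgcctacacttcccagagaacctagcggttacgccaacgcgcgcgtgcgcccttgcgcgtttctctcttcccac
ATP5PD: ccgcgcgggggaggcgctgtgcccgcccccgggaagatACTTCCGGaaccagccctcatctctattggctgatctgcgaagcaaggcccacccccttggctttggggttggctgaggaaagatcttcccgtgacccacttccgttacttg
ATP5PF: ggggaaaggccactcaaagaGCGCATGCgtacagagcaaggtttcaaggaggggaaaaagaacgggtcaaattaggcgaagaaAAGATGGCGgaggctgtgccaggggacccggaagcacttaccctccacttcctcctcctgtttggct
COX5B: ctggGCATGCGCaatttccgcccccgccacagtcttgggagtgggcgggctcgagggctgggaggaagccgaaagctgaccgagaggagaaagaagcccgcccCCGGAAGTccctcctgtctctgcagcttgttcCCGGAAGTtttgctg
SDHD: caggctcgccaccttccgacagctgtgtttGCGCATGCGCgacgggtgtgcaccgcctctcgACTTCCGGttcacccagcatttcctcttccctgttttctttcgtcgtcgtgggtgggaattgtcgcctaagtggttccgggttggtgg
In these stretches ATP5PD held an ETS family match, ATP5PF an NRF1 and a YY1 match, COX5B an NRF1 match and 2 ETS family matches, and SDHD 2 overlapping NRF1 matches and an ETS family match. ATP5PF has 2 annotated starts, and the one shown was chosen because its window held an NRF1 match. The window of its other start held no NRF1 match, but a YY1 match and, 8 bases before that start, an ETS family match. ATP5PO held no match in its window of 250 bases before to 50 bases after the start.

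Entries of that window were matched for 31 of the 39 genes, 37 windows in all because 5 genes had more than 1 start, and a gene was counted where any of its windows held a match. NRF1 matches were in 8 genes (25.8%), against 3.05% of the 35116 single windows in the table and 6.17% of the 11029 tested genes with an entry. ETS family matches were in 9 (29.0%), against 4.14% of all windows and 9.29% of tested genes. YY1 matches were in 3 (9.68%), against 1.75% and 4.33%. At least 1 of the 3 motifs was in 15 genes (48.4%), against 8.35% of all windows and 18.1% of tested genes. The same window held both an NRF1 and an ETS family match in SDHD and COX5B only. In the fold changes described below, the median log2 fold change was -0.41 over the 15 genes with a motif and -0.40 over the 16 without. The 8 genes with no entry had a median of -0.29.

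Levels are given as CPM (reads of a gene relative to the library's total), scaled for library composition with TMM factors, and fold changes are CXCL10 minus control on the log2 scale with a standard error (SE). Library totals were 34.8 to 41.0 M reads. Control replicate 4 stood apart: among low counts (1 to 20 reads) its share of even counts was 75.8%, against 66.8% to 68.0% in the others. The labelled macrophage-like state was checked with 9 markers, whose summed level was 3759 to 4639 CPM in controls and 3496 to 3943 CPM with CXCL10. CSF1R, CD14, ITGAM, SPI1, TYROBP and FCER1G were well detected, while CD68 was at 0 to 0.13 CPM and MRC1 at 0.95 to 2.09 CPM. CD163, the remaining marker, is not described singly. Behind the sum the markers went both ways: of 8 tested, 4 were below 0 and 4 above, with log2 fold changes from -0.56 to 0.32. Of the exon bases of CD68, 85.6% also belong to other genes, where reads were not counted. Among markers of other cells, CD2, MS4A1 and EPCAM had no read, and CD3D and CD3E had at most 8 reads a library, but TRAC stood at 216 to 279 CPM.

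In the 39 genes the CXCL10 libraries were on the lower side, but no gene passed the test. The log2 fold change was below 0 in 37 of 39, against 46% of all tested genes, and the median was -0.40, against 0.02 over all tested genes. SDHC and UQCRC2 lay just above 0. After Benjamini-Hochberg adjustment over all tested genes, edgeR's quasi-likelihood test called 0 of the 39 at 0.05. Over all genes it also called 0 (0%). Their adjusted p-values ran from 0.683 to 0.9995. At an unadjusted p under 0.05, 23 members were lower and 0 higher. The same threshold was passed by 4.65% of all tested genes in the lower direction, 768 genes against 413 higher. Scaled by library size only, that split over all genes was 407 lower and 744 higher. DESeq2 and limma-voom, run on the same 6 libraries, also called 0 members after adjustment. At an unadjusted p under 0.05 they had 23 and 24 members lower, against 4.8% and 4.28% of all tested genes. In 16 members all 3 CXCL10 libraries were below all 3 controls, against 6.48% of all tested genes. In bulk RNA, fewer cells of a type and less RNA per cell cannot be told apart.

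The members' share of all reads shows which libraries carried this. It was 0.832%, 0.834% and 0.999% in control replicates 1, 3 and 4, and 0.841%, 0.670% and 0.735% in CXCL10 replicates 1, 3 and 4. Control replicate 4 was the highest and CXCL10 replicate 3 the lowest, while CXCL10 replicate 1 lay above controls 1 and 3. Gene by gene, control replicate 4 was highest in 34 of 39 members and CXCL10 replicate 3 lowest in 29. Set against the mean of controls 1 and 3, the median member stood 0.45 higher in control replicate 4. It stood at -0.01 in CXCL10 replicate 1, -0.40 in CXCL10 replicate 3 and -0.27 in CXCL10 replicate 4 on that log2 scale. CXCL10 replicate 1 was below both of these controls in 19 members and above both in 13, while CXCL10 replicates 3 and 4 were each below both in 35. The part of control replicate 4 and of CXCL10 replicate 3 in the difference was measured by leaving them out. Without control replicate 4 the median was -0.21 and 3 members were lower at an unadjusted p under 0.05 (1.59% of tested genes), namely COX6B1, ATP5PO and ATP5ME. Without CXCL10 replicate 3 there were 6 such members (1.95% of tested genes), and without CXCL10 replicate 4 there were 5 (1.98%). With both control replicate 4 and CXCL10 replicate 3 left out, the median was -0.13 and 1 member passed that threshold, against 2.18% of tested genes. Gene by gene, leaving out control replicate 4 brought the log2 fold change nearer to 0 by over 1.5 times, or changed its sign, in 28 of 39 members, and leaving out CXCL10 replicate 3 did so in 12.

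**Figure D1:**
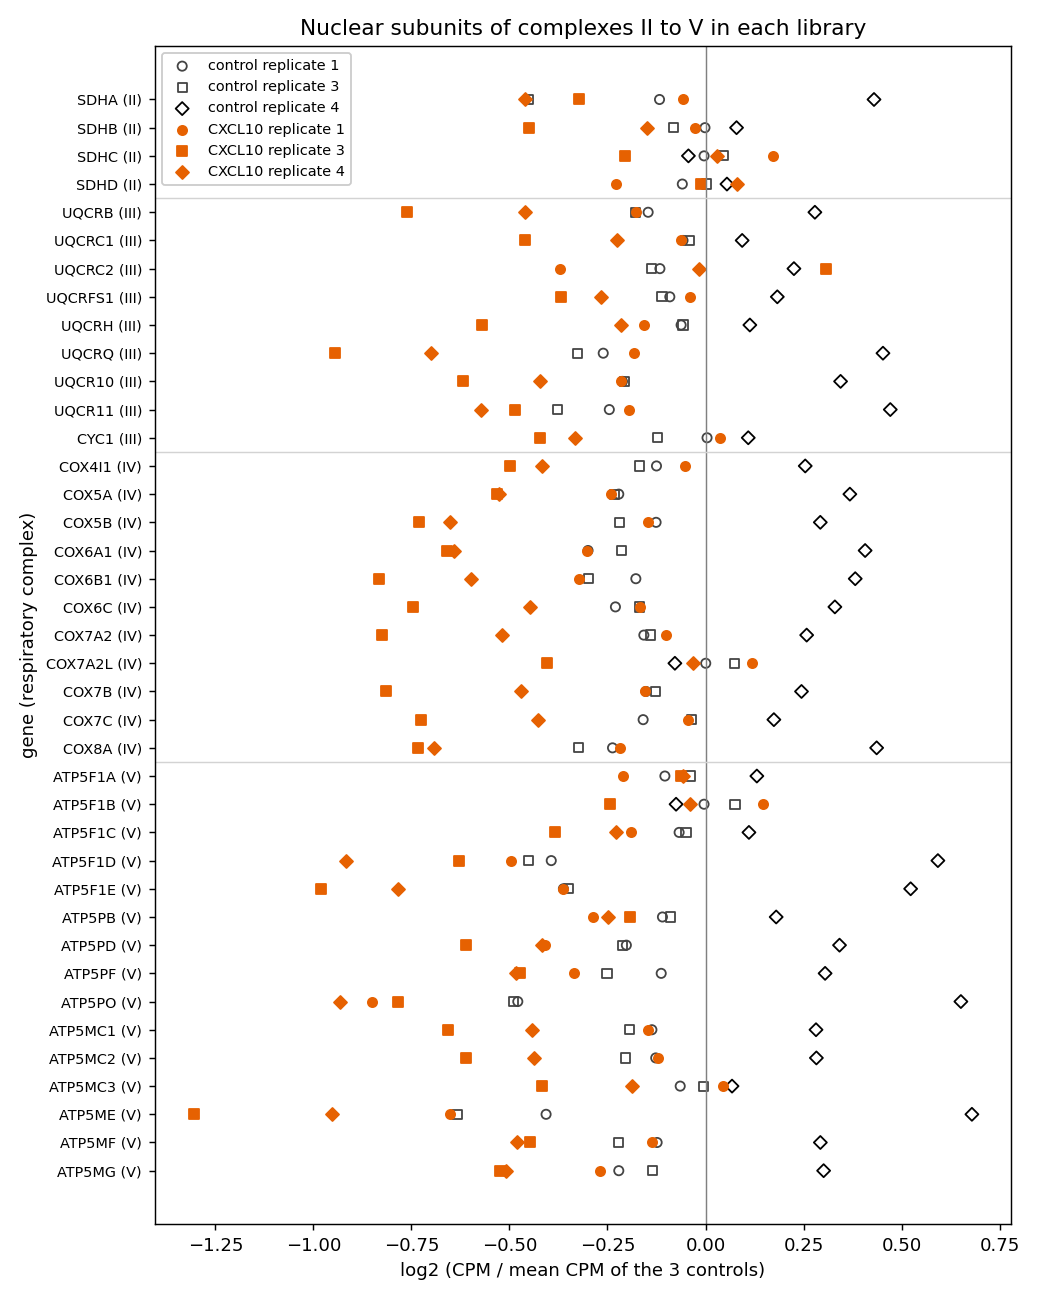
Level of each of the 39 genes in each library, as log2 of its CPM over the mean CPM of the 3 controls; rows are genes ordered by complex, open black symbols are controls and filled orange symbols CXCL10 libraries. Control replicate 4 (open diamonds) is the highest in 34 rows and CXCL10 replicate 3 (filled squares) the lowest in 29.

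The scaling also bears on the count of separated groups. With TMM factors 16 members had no overlap. With DESeq2's size factors there were 11 (6.21% of all tested genes), with upper-quartile factors 8 (6.04%) and with library size only 10 (3.99%). In all 4 scalings 8 of 39 members (20.5%) had every CXCL10 library below every control, against 3.86% of all tested genes. These were UQCRH of complex III and 7 genes of complex V: ATP5F1C, ATP5F1D, ATP5PB, ATP5PD, ATP5PF, ATP5PO and ATP5MG.

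Of the complexes, II had the median nearest 0. The median log2 fold change of its 4 genes was -0.12, 0 of 4 were at an unadjusted p under 0.05, and the groups overlapped in all 4. SDHC and SDHD encode the membrane anchor that holds the haem and ubiquinone site. SDHC was at 252, 261 and 245 CPM in control replicates 1, 3 and 4 and at 285, 219 and 258 CPM in CXCL10 replicates 1, 3 and 4. The CXCL10 libraries lay on both sides of the controls, and the log2 fold change was 0.01 ± 0.13 (SE, adjusted p = 0.996, edgeR), with a 95% interval from -0.27 to 0.29. SDHD was at 90.1, 94.0 and 97.5 CPM in controls and 80.1, 93.1 and 99.2 CPM with CXCL10. Its lowest and its highest library both had CXCL10, and its log2 fold change was -0.05 ± 0.13 (adjusted p = 0.950). SDHB carries the iron-sulfur clusters. It was at 88.8, 83.9 and 93.8 CPM in controls and 87.1, 65.1 and 80.1 CPM with CXCL10, with CXCL10 replicate 1 among the controls, and its log2 fold change was -0.20 ± 0.14 (adjusted p = 0.769).

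SDHA, the flavoprotein that oxidises succinate, gave few reads. It had 1996 reads over all libraries. Rows named as its pseudogenes (SDHAP1, SDHAP2 and SDHAP3) held 2524 reads, 55.8% of the sum of both, and the counting dropped reads with more than 1 mapping place. In addition 21.6% of its exon bases overlap another gene on the same strand. Its counted level was 9.005, 7.14 and 13.2 CPM in controls and 9.38, 7.82 and 7.09 CPM with CXCL10. Control replicate 4 was highest and the other 5 libraries overlapped, with a log2 fold change of -0.27 ± 0.22 (adjusted p = 0.805). It was 0.01 without control replicate 4. The level of SDHA in these counts is uncertain for these reasons. For the other 26 members with rows named as pseudogenes, those rows held at most 1.19% of the reads (COX6A1). Rows under other names, such as UQCRHL (10.9 to 18.7 CPM), were not part of that count. Because reads with more than 1 mapping place were dropped, few reads on such rows do not show that few were lost.

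In complex III the lower values lay mainly in the small subunits, though a difference between parts of the complex was not tested. The median log2 fold change of its 9 genes was -0.30. At an unadjusted p under 0.05, 4 were lower, against 4.65% of all tested genes, and 3 had no overlap, against 6.48%. The 5 small subunits had a median of -0.41 and held all 4 genes that were lower at that threshold. UQCRQ, a small subunit beside cytochrome b, was at 86.1, 82.2 and 141 CPM in controls and 91.0, 53.6 and 63.5 CPM with CXCL10. CXCL10 replicate 1 was above controls 1 and 3, the other CXCL10 libraries were below every control, and the log2 fold change was -0.57 ± 0.22 (adjusted p = 0.683). UQCRB, a ubiquinone-binding subunit, was at 638, 624 and 857 CPM in controls and 625, 417 and 514 CPM with CXCL10. Here CXCL10 replicate 1 lay between the 2 lower controls, and the log2 fold change was -0.45 ± 0.17 (adjusted p = 0.683). With control replicate 4 left out, UQCRQ was at -0.27 and UQCRB at -0.28.

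UQCRH, the hinge protein between cytochrome c1 and cytochrome c, was at 452, 453 and 510 CPM in controls and 423, 318 and 406 CPM with CXCL10. The groups did not overlap in any of the 4 scalings, and the log2 fold change was -0.30 ± 0.14 (adjusted p = 0.687). UQCR10, another small subunit, was at 124, 124 and 182 CPM in controls and 124, 93.6 and 107 CPM with CXCL10. Its groups did not overlap with TMM factors by a narrow margin, 123.97 CPM in the lowest control against 123.64 CPM in CXCL10 replicate 1, and they overlapped in the other 3 scalings. Its log2 fold change was -0.41 ± 0.17 (adjusted p = 0.683). UQCR11, the last of the small subunits, was at 21.8 to 39.3 CPM in controls and 19.1 to 24.8 CPM with CXCL10, with a log2 fold change of -0.41 ± 0.21 (adjusted p = 0.702). It was -0.10 without control replicate 4, and UQCR10 was then at -0.20.

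The nuclear-encoded proteins that carry electrons in complex III are UQCRFS1, the Rieske iron-sulfur protein, and CYC1, cytochrome c1. UQCRFS1 was at 130, 128 and 157 CPM in controls and 134, 107 and 115 CPM with CXCL10, which gave a log2 difference of -0.22 ± 0.14 (adjusted p = 0.754). CYC1 was at 181, 166 and 195 CPM in controls and 185, 135 and 143 CPM with CXCL10, which gave a log2 difference of -0.23 ± 0.14 (adjusted p = 0.755). When control replicate 4 was left out, UQCRFS1 was at -0.11. In both genes CXCL10 replicate 1 was above at least 1 control and the other 2 CXCL10 libraries were below all controls. The core proteins UQCRC1 and UQCRC2 form the part of the complex that faces the matrix. UQCRC2 was at 81.8, 80.5 and 104 CPM in controls and 68.6, 110 and 87.7 CPM with CXCL10. It was the member in which CXCL10 replicate 3, lowest for most members, was highest, and its log2 fold change of 0.0005 ± 0.17 (adjusted p = 0.9995) has a 95% interval from -0.37 to 0.37. UQCRC1, named outside the rule for naming genes, was at 286 to 318 CPM in controls and 217 to 285 CPM with CXCL10, and its groups overlapped in 3 of 4 scalings.

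Complex IV had the lowest median of the complexes, -0.45 over 11 genes. All 11 were below 0, and 9 were lower at an unadjusted p under 0.05, against 4.65% of all tested genes. In 4 the groups did not overlap with TMM factors, against 6.48% of all tested genes. None of these 4 stayed without overlap in all 4 scalings. COX6B1, a subunit on the side of the intermembrane space, had the lowest p of the complex. It was at 342, 315 and 504 CPM in controls and 309, 217 and 256 CPM with CXCL10. All CXCL10 libraries were below all controls, by a small step for CXCL10 replicate 1, in 3 of 4 scalings, and the log2 fold change was -0.57 ± 0.18 (adjusted p = 0.683). Leaving out control replicate 4 gave -0.33. COX6A1, a subunit with a role in regulating the enzyme, was at 54.3, 57.6 and 88.6 CPM in controls and 54.2, 42.3 and 42.9 CPM with CXCL10. CXCL10 replicate 1 lay just under the lowest control with TMM factors, and the groups overlapped in 3 of 4 scalings. The log2 fold change was -0.52 ± 0.19 (adjusted p = 0.683), or -0.26 without control replicate 4.

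COX5B, a subunit that binds zinc, was at 255, 239 and 341 CPM in controls and 251, 168 and 177 CPM with CXCL10. CXCL10 replicate 1 lay among the controls, and the log2 fold change was -0.49 ± 0.18 (adjusted p = 0.683). COX7B was at 173, 176 and 228 CPM in controls and 173, 109 and 139 CPM with CXCL10, with CXCL10 replicate 1 just under the lowest control and a log2 difference of -0.45 ± 0.17 (adjusted p = 0.683). Its groups overlapped in every scaling other than TMM. COX8A, among the smallest subunits, was at 80.0, 75.3 and 128 CPM in controls and 81.0, 56.7 and 58.3 CPM with CXCL10, with a log2 fold change of -0.53 ± 0.20 (adjusted p = 0.683). Its exons are the shortest of the 39 genes (494 bases), and 35.4% of them overlap another gene on the same strand. COX4I1, the ubiquitous form of the subunit that regulates the enzyme, was at 530, 515 and 690 CPM in controls and 558, 409 and 433 CPM with CXCL10. CXCL10 replicate 1 was above 2 controls, and the log2 fold change was -0.31 ± 0.16 (adjusted p = 0.702). Leaving out control replicate 4 gave -0.24 for COX8A, -0.31 for COX5B and -0.16 for COX4I1.

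The remaining complex IV members outside the naming rule were COX5A, COX6C, COX7A2, COX7C and COX7A2L. The first 4 had log2 fold changes from -0.45 to -0.37, with CXCL10 replicate 3 lowest in each, and from -0.30 to -0.20 without control replicate 4. COX7A2L, which links complexes III and IV into supercomplexes, was at 140, 148 and 133 CPM in controls and 152, 106 and 137 CPM with CXCL10. It differed from the subunits proper in that control replicate 4 was not its highest library. Its log2 fold change was -0.09 ± 0.15 (adjusted p = 0.911).

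Complex V, the ATP synthase, had members near 0 in its head and members further below 0 in its other parts. The median log2 fold change was -0.07 in the head, -0.67 in the central stalk and -0.45 in the peripheral stalk. In the c ring it was -0.38 and in the accessory subunits -0.43. A difference between these parts was not tested. All 15 genes were below 0, with a median of -0.40. At an unadjusted p under 0.05, 10 were lower, against 4.65% of all tested genes, and 9 had no overlap, against 6.48%. The catalytic head is built from alpha and beta subunits. ATP5F1B, the beta subunit that makes ATP, was at 649, 686 and 618 CPM in controls and 720, 550 and 634 CPM with CXCL10. The groups overlapped fully, with a CXCL10 library at each end, and the log2 fold change was -0.04 ± 0.13 (adjusted p = 0.964, 95% interval from -0.32 to 0.25). ATP5F1A, the alpha subunit, was at 377, 395 and 444 CPM in controls and 351, 389 and 390 CPM with CXCL10. Its log2 fold change was -0.11 ± 0.12 (adjusted p = 0.867), or -0.03 without control replicate 4.

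The central stalk turns inside the head. ATP5F1D, its delta subunit, was at 47.0, 45.1 and 93.0 CPM in controls and 43.7, 39.9 and 32.7 CPM with CXCL10. Control replicate 4 was far above the other controls, the groups did not overlap in any of the 4 scalings, and the log2 fold change was -0.67 ± 0.24 (adjusted p = 0.683). Without control replicate 4 it was -0.24. ATP5F1E, the epsilon subunit, was at 315, 318 and 582 CPM in controls and 315, 205 and 235 CPM with CXCL10, which gave a log2 difference of -0.69 ± 0.22 (adjusted p = 0.683), and without control replicate 4 it was -0.33. CXCL10 replicate 1 (314.89 CPM) was only just below the lowest control (315.19 CPM), and the groups overlapped in 3 of 4 scalings. Of its exon bases 23.2% lie opposite TUBB1, and strand was not used in counting. ATP5F1C, the gamma subunit, is named outside the rule. It was at 159 to 179 CPM in controls and 127 to 146 CPM with CXCL10, with no overlap in any of the 4 scalings and a log2 difference of -0.27 ± 0.12 (adjusted p = 0.694).

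The peripheral stalk holds the head still against the turning rotor. In all 4 of its genes every CXCL10 library was below every control in each of the 4 scalings, against 3.86% of all tested genes. Outside the peripheral stalk, the same held for UQCRH, ATP5F1C, ATP5F1D and ATP5MG. ATP5PO, the subunit that joins the stalk to the top of the head, was at 31.4, 31.2 and 68.8 CPM in controls and 24.3, 25.4 and 23.0 CPM with CXCL10. Its CXCL10 libraries lay close together, and control replicate 4 was far above the other controls. Its log2 fold change was -0.85 ± 0.25 (unadjusted p = 0.00426, adjusted p = 0.683, edgeR), with a 95% interval from -1.39 to -0.32. Without control replicate 4 it was -0.37, with an unadjusted p of 0.0236. Of the exon bases of ATP5PO 21.6% overlap other genes.

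ATP5PD, the d subunit of the stalk, was at 124, 123 and 180 CPM in controls and 107, 93.2 and 106 CPM with CXCL10. Controls 1 and 3 were nearly equal, every CXCL10 library was below them, and the log2 fold change was -0.48 ± 0.16 (adjusted p = 0.683). Without control replicate 4 it was -0.27. ATP5PF and ATP5PB were chosen after their values were seen. ATP5PF, coupling factor 6, was at 127, 116 and 170 CPM in controls and 109, 99.3 and 98.7 CPM with CXCL10, which gave a log2 difference of -0.43 ± 0.15 (adjusted p = 0.683), and 23.1% of its exon bases lie opposite GABPA and JAM2. ATP5PB, the b subunit, was at 358, 363 and 438 CPM in controls and 317, 338 and 325 CPM with CXCL10, which gave a log2 difference of -0.24 ± 0.13 (adjusted p = 0.705). Leaving out control replicate 4 gave -0.24 for ATP5PF and -0.14 for ATP5PB. In each of these 4 genes CXCL10 replicate 1 was also below both controls 1 and 3, as it was in 19 of the 39 members. Averaged over the 4 genes, the log2 level relative to the control mean was -0.43, -0.48 and -0.48 in CXCL10 replicates 1, 3 and 4. In controls 1, 3 and 4 it was -0.19, -0.22 and 0.41. A difference between the stalk and the other members was not tested.

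Set against the beta subunit in the same library, the stalk genes overlapped between the groups in 3 of 4 cases. The log2 ratio of ATP5PD to ATP5F1B was -2.22 ± 0.38 (SD, n = 3) in controls and -2.63 ± 0.11 (SD, n = 3) with CXCL10, with no overlap. The ratio of ATP5PO to ATP5F1B was -4.00 ± 0.72 in controls and -4.70 ± 0.24 with CXCL10, and CXCL10 replicate 3 lay above control replicate 3. These pairs were chosen after the values were seen and are given without a test.

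The c ring, the rotor in the membrane, is made of 1 protein encoded by 3 genes whose mature product is the same. ATP5MC1 was at 137, 132 and 183 CPM in controls and 136, 95.4 and 111 CPM with CXCL10, which gave a log2 difference of -0.40 ± 0.16 (adjusted p = 0.683). ATP5MC2 was at 214, 203 and 285 CPM in controls and 215, 153 and 173 CPM with CXCL10, which gave a log2 difference of -0.38 ± 0.16 (adjusted p = 0.683). ATP5MC3 was at 248, 259 and 272 CPM in controls and 268, 194 and 228 CPM with CXCL10, which gave a log2 difference of -0.18 ± 0.14 (adjusted p = 0.795). Leaving out control replicate 4 gave -0.23 for ATP5MC1 and -0.21 for ATP5MC2. In all 3 genes CXCL10 replicate 1 lay among the controls and CXCL10 replicate 3 was lowest. Per kilobase of exon, the control means were 57.5, 58.6 and 38.3 CPM for ATP5MC1, ATP5MC2 and ATP5MC3.

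Of the accessory subunits around the ring, ATP5ME (subunit e) had the largest fold change of the 39. It was at 16.8, 14.4 and 35.7 CPM in controls and 14.2, 9.02 and 11.5 CPM with CXCL10, which gave a log2 difference of -0.94 ± 0.29 (unadjusted p = 0.00545, adjusted p = 0.683), and -0.43 without control replicate 4. CXCL10 replicate 1 was just below control replicate 3. Of its exon bases 61.3% lie opposite MYL5, the largest such share among the members, so its counts are uncertain. ATP5MG (subunit g) and ATP5MF (subunit f) are named outside the rule. ATP5MG was at 75.2 to 108 CPM in controls and 60.9 to 72.8 CPM with CXCL10, with no overlap in any of the 4 scalings. ATP5MF was at 111 to 159 CPM in controls and 93.0 to 118 CPM with CXCL10, with overlap. Their log2 fold changes were -0.43 and -0.35, and without control replicate 4 they were -0.25 and -0.17.

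**Figure D2:**
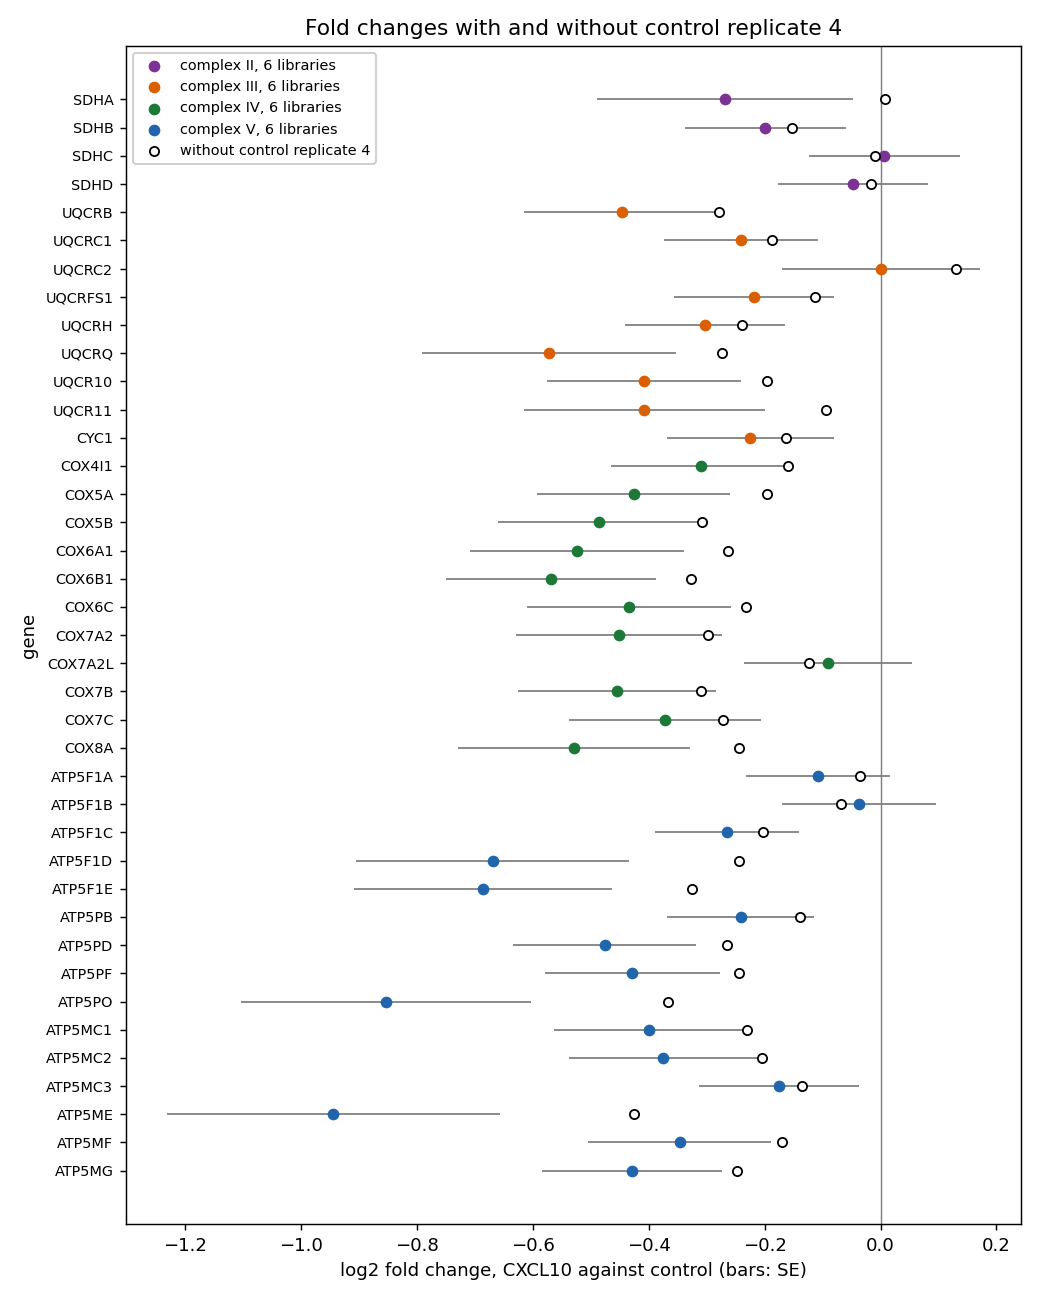
Log2 fold change of each of the 39 genes, CXCL10 against control, with all 6 libraries (filled circles, coloured by complex, bars are the SE) and without control replicate 4 (open circles). Leaving out that control moves the median from -0.40 to -0.21, with ATP5ME going from -0.94 to -0.43 and ATP5PO from -0.85 to -0.37.

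The fold changes also varied with exon length, the summed exons of a gene in the annotation. Over the 39 genes, Pearson's r between log2 length and log2 fold change was 0.46 and Spearman's rho 0.43, and over all 16531 tested genes they were 0.27 and 0.32. These points share the same 6 libraries and are given as a description. The 13 shortest genes (494 to 2137 bases) had a median of -0.43, and 11 of them were lower at an unadjusted p under 0.05. The 13 of middle length (2218 to 3138 bases) had a median of -0.35 and 7 such genes, and the 13 longest (3170 to 14160 bases) a median of -0.27 and 5 such genes. Over all tested genes, of any length, 4.65% were lower at that threshold. SDHC, with the longest exons, was the gene with the highest fold change, while ATP5PO, at 3170 bases, had one of the lowest. With the length trend of all genes removed, the median of the members was -0.28 and 17 of them were lower at an unadjusted p under 0.05, against 3.39% of all tested genes. The part of length in the differences between complexes was not tested.

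**Figure D3:**
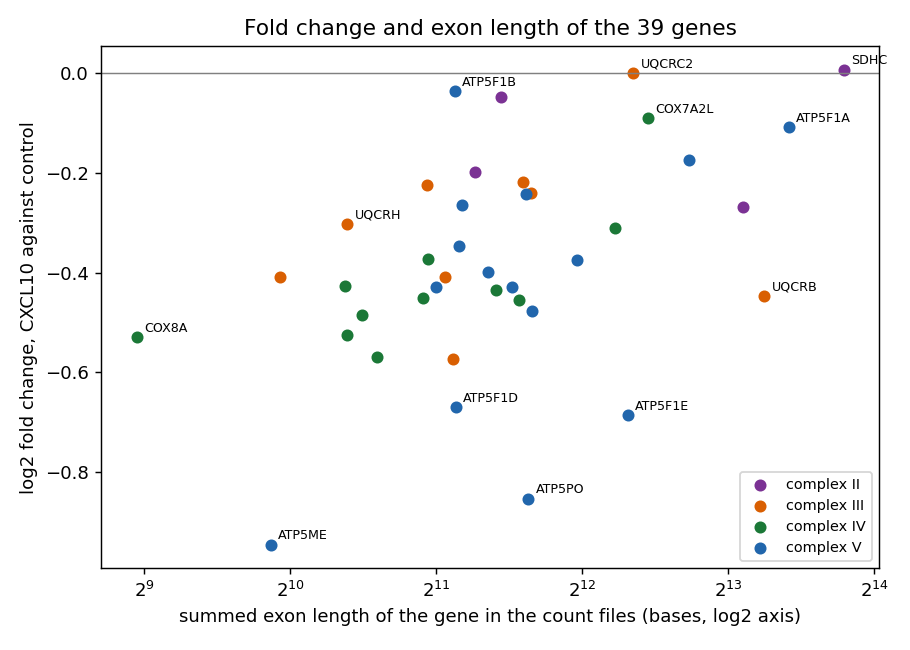
Log2 fold change (CXCL10 against control, vertical axis) against summed exon length in bases (horizontal axis, log2 scale); each point is 1 of the 39 genes, coloured by complex. Short genes such as COX8A (494 bases) and ATP5ME lie low, and SDHC (14160 bases), UQCRC2 and ATP5F1A lie near 0, while ATP5PO (3170 bases) and ATP5F1E (5081 bases), also among the 13 longest genes, lie low.

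Per kilobase of exon the levels of the subunits spread widely in the control libraries. UQCRH (352 CPM per kilobase), ATP5F1B (291), COX6B1 (250), COX7A2 (236) and COX5A (200) had the highest means. SDHA (1.11), UQCR11 (13.3) and ATP5PO (13.8) had the lowest. Of their exon bases 21.6%, 11.0% and 21.6% overlap other genes, where reads were left out while the bases stay in the length. The uncertain level of SDHA, described above, also enters the complex II median. The medians were 25.8 for complex II, 72.7 for complex III, 185 for complex IV and 57.1 for complex V. All exons of the annotation enter the length, so genes with long rarely used exons, such as SDHC, appear lower on this scale.

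The filter on low counts changed whether members passed the adjusted threshold. With no filter, edgeR called 6 members lower after adjustment (UQCRQ, COX6B1, ATP5F1D, ATP5F1E, ATP5PO and ATP5ME), among 137 of 30869 genes (0.444%). The smallest adjusted p among the members was then 0.000854.

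Other genes of the respiratory chain, from lists drawn up by function, were mostly below 0 as well. Of 18 listed further subunits, tissue forms and inhibitors, 8 were tested and 7 were below 0, with 0 past the adjusted threshold. At an unadjusted p under 0.05, 5 were lower, against 4.65% of all tested genes. ATP5MPL and ATP5MD, small proteins of the ATP synthase, had log2 fold changes of -0.53 ± 0.18 and -0.49 ± 0.19 (adjusted p = 0.683 for both). NDUFA4, a complex IV subunit, was at -0.40 ± 0.17, and ATP5IF1, the inhibitor of the ATP synthase, at -0.39 ± 0.17. CYCS, cytochrome c, was at 338.97 CPM in controls and 308.2 CPM with CXCL10, with a log2 fold change of -0.14 ± 0.12 (adjusted p = 0.808). The tissue forms COX4I2, COX6A2, COX7B2 and COX8C had no read in any library.

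Assembly factors were mixed. All 4 factors of complex II were below 0, with SDHAF2, which helps attach the flavin to SDHA, at -0.59 ± 0.21 (adjusted p = 0.683). Of 6 factors of complex III, 3 were below 0, UQCC2 being at -0.42 ± 0.19 (adjusted p = 0.693). Of 23 tested factors of complex IV, 19 were below 0, with a median of -0.16. COX14 was at -0.58 ± 0.22 and COA6, which works in copper delivery, at -0.43 ± 0.16 (adjusted p = 0.683 for both). All 4 factors of complex V were below 0, with TMEM70 at -0.28 ± 0.13 (adjusted p = 0.693). None of the factors passed the adjusted threshold.

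The 6 subunits of complexes III to V that mitochondrial DNA encodes had a median log2 fold change of -0.05. MT-CO1, the catalytic subunit of complex IV, was at 9911, 9268 and 10067 CPM in controls and 9353, 9020 and 10852 CPM with CXCL10. Control replicate 4 did not stand out for MT-CO1. For MT-CO2 it was highest, at 8030 CPM against 6925 and 6882 CPM in the other controls, and CXCL10 replicate 3 was lowest (5551 CPM). MT-CO2 was at -0.17 ± 0.14 (adjusted p = 0.802), and MT-CYB, cytochrome b of complex III, at -0.06 ± 0.13 (adjusted p = 0.940). MT-ATP8 of complex V went the other way: it was at 111, 108 and 44.7 CPM in controls and 122, 113 and 163 CPM with CXCL10, which gave a log2 difference of 0.59 ± 0.26 (adjusted p = 0.684). Control replicate 4, highest for most nuclear subunits, was lowest here. MT-ATP8 overlaps MT-ATP6 over 22.2% of its length, and reads over both genes were left out.

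Nuclear complex I subunits and cytosolic ribosomal proteins had values like those of the 39 genes in each library. Of 37 complex I subunits 33 were below 0, with a median of -0.40. All 41 ribosomal proteins listed were below 0, with a median of -0.41, and their share of reads was 6.16%, 6.02% and 8.01% in controls and 6.03%, 4.84% and 5.25% with CXCL10. As means of log2 CPM relative to the average library, the 39 genes stood at 0.05, 0.02 and 0.47 in control replicates 1, 3 and 4 and at 0.01, -0.34 and -0.21 in CXCL10 replicates 1, 3 and 4. The ribosomal proteins stood at 0.06, 0.02 and 0.56 in controls and 0.00, -0.40 and -0.24 with CXCL10. The 6 libraries stood in the same order in both lists. No gene of either comparison list passed the adjusted threshold.

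**Figure D4:**
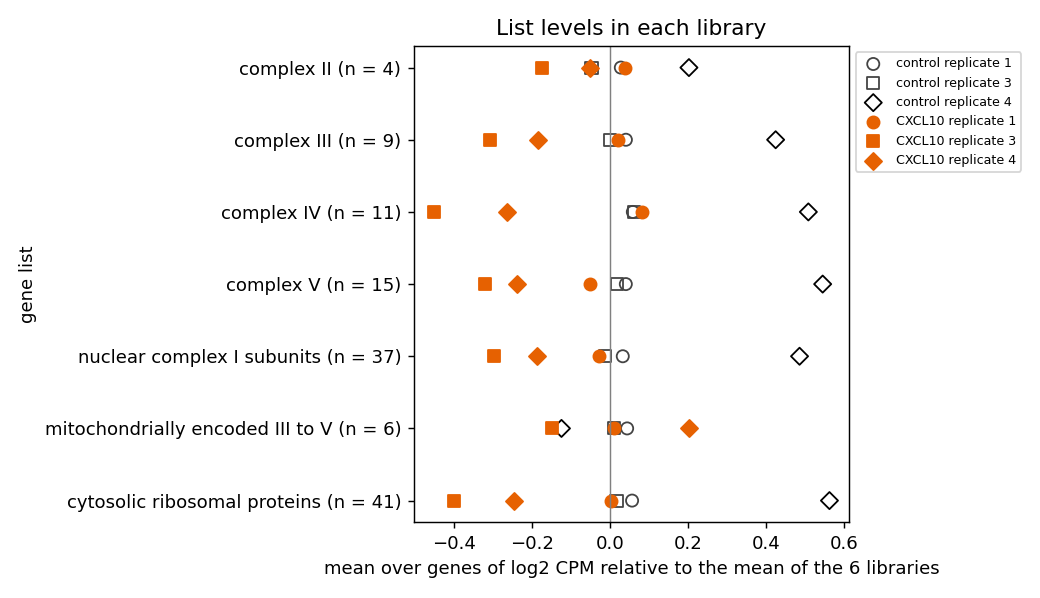
Mean over the genes of a list of log2 CPM relative to the average of the 6 libraries (horizontal axis), per library, for complexes II to V and 3 comparison lists; open symbols are controls and filled symbols CXCL10 libraries. Control replicate 4 is to the right and CXCL10 replicates 3 and 4 to the left in the nuclear lists, while in the mitochondrially encoded genes CXCL10 replicate 4 is the highest.

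Regulators of respiratory genes lay around 0. Of 11 tested, 6 were below 0, the median was -0.01, and 0 were at an unadjusted p under 0.05. GABPA was at 21.6 ± 1.34 CPM (SD, n = 3) in controls and 26.5 ± 7.30 CPM with CXCL10, the latter raised by CXCL10 replicate 3 at 34.9 CPM. NRF1 was at 16.4 ± 0.997 CPM in controls and 18.1 ± 0.619 CPM with CXCL10. PPARGC1A, the coactivator PGC-1 alpha, was at 0.05 to 1.32 CPM. Genes of succinate handling had a median of -0.04 over 7 tested, and ACOD1, which makes itaconate, an inhibitor of complex II, had at most 8 reads in a library.

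Markers of proliferation and of immature myeloid cells are given beside these results since they also differed between libraries. All 5 proliferation markers had log2 fold changes above 0, with a median of 0.32, and their summed level was 286 to 337 CPM in controls and 313 to 486 CPM with CXCL10. CXCL10 replicate 3, lowest for most of the 39 genes, was highest for TOP2A at 192 CPM. The 6 immature myeloid markers summed to 62.9 to 120.0 CPM in controls, with control replicate 4 highest, and 52.6 to 71.2 CPM with CXCL10. AZU1 made up the greater part of that sum in every library (38.9 to 98.0 CPM), while MPO had reads in 1 library only. Their part in the results was not tested.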

How the data were processed

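Polyadenylated RNA of 6 THP-1 libraries (3 control, 3 CXCL10) was sequenced from a stranded kit, per the labels. The deposited files hold raw read counts per gene, which the authors obtained from GENCODE 30 exons with featureCounts 2.0.6, per the file headers. The submitters' processing notes name Trim Galore, STAR, Subread and hg38, whose versions were not given in the sources used here. Per the file headers, both mates of a pair were counted, no strand was set, and reads on several genes or places were left out, which lowers overlapping and duplicated genes. Depth was 34.8 to 41.0 M reads.

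The test was edgeR's (4.0.16, R 4.3.3) quasi-likelihood fit on group over the 6 libraries, with filterByExpr, TMM factors, Benjamini-Hochberg adjustment over 16531 genes and a threshold of 0.05. The fit was tested on simulated data. These held no library standing apart as control replicate 4 did, so that case was not tested. CPM use TMM-scaled totals. No strand, pair or replicate correction was applied to the counts. Alternatives were DESeq2 1.42.0, limma 3.58.1 (voom), other scalings and filters, halved counts, a length correction, a replicate block and each library left out; 2 more were added after seeing the data. The rule named all 4 members of complex II, the 5 of lowest p in each of complexes III, IV and V, fixed core members and c subunit genes, members against their complex's sign, and up to 4 of lowest p per comparison list. Members and lists were chosen with earlier results of these data known. Promoters came from RefSeq (GRCh38.p14). Markers of B cells summed to 2.32 to 3.83 CPM, of epithelium and fibroblasts to 1.70 to 2.99 CPM and of T and NK cells, nearly all TRAC, to 221 to 284 CPM.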

Additional observations from a re-analysis of the deposited data

How the results depend on the processing

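Results were recomputed under 21 other settings. The count of members past the adjusted threshold was 0 in the report and 6 with no filter on low counts (0.444% of all genes in that fit). At a threshold of 0.1 it was 0. The count without overlap, 16 in the report (6.48% of all tested genes), was 8 with upper-quartile factors (6.04%) and 10 with library size only (3.99%). With each library left out in turn, the adjusted count was 0, the unadjusted count ran from 3 (without control replicate 4) to 29 (1.59% to 7.01% of all tested genes), the count without overlap from 10 to 32 (9.02% to 16.7% of all tested genes), and the median from -0.52 to -0.21. The medians then ran from -0.19 to -0.01 for complex II, -0.38 to -0.18 for complex III, -0.63 to -0.26 for complex IV and -0.51 to -0.23 for complex V. Settings added after seeing the data moved more. With the length trend removed and control replicate 4 left out, the unadjusted count was 3, against 1.45% of all tested genes. The medians were then -0.16 for all members, -0.10 for complex III and -0.18 for complex IV. With control replicate 4 and CXCL10 replicate 3 both left out, the unadjusted count was 1, against 2.18% of all tested genes. The medians were then -0.13 for all members, -0.0049 for complex II, -0.0939 for complex III and -0.15 for complex IV. The cause was not tested, beyond fewer libraries entering these fits.

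Direction reversed in 35 of 560 values of the 28 named members, all in 5 genes near 0 or of few reads. UQCRC2 was -0.0085 with DESeq2's size factors, -0.0123 with upper-quartile factors, -0.0087 with DESeq2, -0.0124 with limma-voom, -0.0168 with the replicate block, -0.0499 with the length trend removed, -0.0588 with both of these and -0.0554 with both libraries left out. SDHC was -0.0012 with limma-voom, -5e-04 with library quality weights, -9e-04 with the replicate block, -0.0967 with the length trend removed, -0.1224 with the block as well and -0.1078 without control replicate 4 as well. SDHD was 0.0336 with library size only, 0.0362 with quality weights, 0.0125 with the length trend removed, 0.0043 with the block as well and 0.037 without control replicate 4 as well. ATP5F1B was 0.0375, 0.0622, 0.0617 and 0.0033 with library size only and those 3 length settings, and 0.0199 with both libraries left out, where SDHA was 0.0292. With 1 library left out, the ranges were -0.4334 to 0.0081 for SDHA, -0.0835 to 0.111 for SDHC, -0.1163 to 0.0342 for SDHD, -0.1749 to 0.1549 for UQCRC2 and -0.1378 to 0.0649 for ATP5F1B. The cause was not tested.

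Replicate numbers are shared by the groups. The labels do not say that they mark a shared culture or day, so they were not taken as pairs. Deviations of same-numbered libraries correlated at 0.03, 0.02 and -0.05, but with 3 libraries a group such values cannot decide whether libraries were paired. With the replicate block the unadjusted count was 23, against 4.6% of all tested genes. The adjusted count was 0 and the median -0.39, and no call of a member changed. On depth, halving the counts left the adjusted count at 0, the unadjusted count at 23 (4.88% of all tested genes) and the median at -0.40.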
